A study of Mus musculus with 4 samples.

Results

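The genes described are 10 that govern survival and death at the mitochondrion. The cells were labelled as MC/9, a mouse mast cell line, and had or lacked berberine and anti-DNP IgE. Protective members were Bcl2, Bcl2l1 and Mcl1. Death-promoting members were Bcl2l11, Bax, Bak1, Bid, Bad, Bbc3 and Diablo. Diablo is no relative of Bcl2 by sequence: it encodes a mitochondrial protein that, once released, blocks the inhibitors of caspases. The genes were chosen by name, and the family was picked because its measured values read higher with anti-DNP IgE, so those values chose it and are given as a description. All probe sets that the platform annotation pairs with these symbols alone were taken: 30 probe sets of 9 genes, of 34945 probe sets and 18193 genes in all. Bax was not analysed here.

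Proteins of the Bcl2 family decide whether the outer mitochondrial membrane stays intact. Bcl2, Bcl2l1 (Bcl-xL) and Mcl1 bind and hold back their death-promoting relatives. Bax and Bak1 form the pores, and the BH3-only proteins Bcl2l11 (Bim), Bid, Bad and Bbc3 (Puma) either switch these on or occupy the protective members. Mast cells depend on stem cell factor and interleukin 3 for survival, and Bim and Puma are known mediators of their death when such factors are withdrawn.

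Total RNA from 4 groups was hybridised, each to 1 Affymetrix Mouse Genome 430 2.0 array, on which a probe set of short oligonucleotides reads a transcript. The control is labelled as having no treatment, and BER received berberine, a plant alkaloid, at 10 microM. DNP received an antibody labelled anti-DNP IgE at 500 microg/ml, and BER+DNP received both. Treated cells had 24 h of treatment and 6 h of further culture. The labels give the control no times, and they name no antigen. All cells were labelled as the MC/9 line, of liver origin on a (B6 X A/J)F1 background.

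With 1 array a group there is no replicate error, so no difference below has a test or a p-value. A gene was called higher or lower when 2 arrays lay at least 1.5-fold apart (0.58 on the log2 scale), and each count is set beside the share of all genes called. Values are log2 signals as deposited. Signals of different probe sets cannot be compared with each other, so each gene is read only against itself. A gene was read by its brightest probe set by mean over the 4 arrays. Genes with that mean at or above the median of all probe sets, 3.14, were counted, which kept 12585 genes and 7 of the members: Bcl2, Bcl2l1, Bcl2l11, Bid, Bad, Bbc3 and Diablo. Mcl1 and Bak1 read below it.

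The arrays correlated at 0.988 to 0.991 across 45037 probe sets. Of 10 mast cell markers, 5 lay past the filter, and the defining markers Kit (mean log2 signal 2.78), Fcer1a (2.43), Ms4a2 (2.67) and Cpa3 (2.53) did not. Of 6 leukocyte markers, 3 lay past it, led by Laptm5 at 6.69, while Ptprc (2.29), Cd53 (2.19) and Coro1a (2.95) did not. Of 7 epithelial markers, 6 lay past it, led by Krt17 at 9.60, Krt14 at 8.61 and Krt8 at 7.33, as did 6 of 7 fibroblast markers. The 5 mast cell markers past it included Gata2 (5.87), Hdc (5.50) and Tpsb2 (4.08). These readings do not bear out the labelled cell type. A dim probe set does not show that its gene is silent, so they do not settle it either. In such bulk RNA, fewer cells of a type and less RNA per cell cannot be told apart.

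Promoters of 3 members are shown for the results that follow. Bbc3 was the one member past 1.5-fold, Bcl2 differed most between DNP and control, and Bcl2l11 is the BH3-only gene that shares a FOXO motif with Bbc3. Each sequence runs 5′ to 3′ on the gene's strand, from 250 bases before to 50 after a RefSeq transcription start (GRCm38.p6). Capitals mark the FOXO core GTAAACA on either strand in Bbc3 and Bcl2l11, and the GC box GGGCGG on either strand in Bcl2.
Bbc3, chr7:16310011-16310310, plus strand, the second of 3 starts: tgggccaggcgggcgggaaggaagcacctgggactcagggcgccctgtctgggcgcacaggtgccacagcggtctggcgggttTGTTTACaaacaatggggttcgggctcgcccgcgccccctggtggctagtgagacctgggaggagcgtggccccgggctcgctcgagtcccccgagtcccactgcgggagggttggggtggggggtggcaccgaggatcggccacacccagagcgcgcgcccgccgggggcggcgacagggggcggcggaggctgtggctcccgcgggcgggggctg
Bcl2l11, chr2:128125788-128126087, plus strand, the first of 2 starts: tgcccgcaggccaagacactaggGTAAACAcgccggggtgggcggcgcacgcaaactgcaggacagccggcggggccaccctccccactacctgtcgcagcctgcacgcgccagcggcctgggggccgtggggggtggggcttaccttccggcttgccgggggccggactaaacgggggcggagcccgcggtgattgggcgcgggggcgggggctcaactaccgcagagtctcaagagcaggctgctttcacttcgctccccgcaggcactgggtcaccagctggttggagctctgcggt
Bcl2, chr1:106714241-106714540, minus strand: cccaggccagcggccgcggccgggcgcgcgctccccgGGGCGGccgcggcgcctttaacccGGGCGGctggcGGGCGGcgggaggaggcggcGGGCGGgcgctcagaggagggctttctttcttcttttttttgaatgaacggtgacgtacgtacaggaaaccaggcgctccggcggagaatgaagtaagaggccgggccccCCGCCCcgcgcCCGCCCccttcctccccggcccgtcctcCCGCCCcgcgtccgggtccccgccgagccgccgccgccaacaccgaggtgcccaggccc

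The 10 members have 16 such promoters in the RefSeq table, with a median GC content of 65.8% against 52.7% over all 32851 promoters, and a median of 27 CpG sites against 7. A GC box, the letters bound by the Sp1 family, stood in 11 of the 16 and in 35.7% of all. The FOXO core stood in 2 of the 16 and in 3.65% of all; it began 167 bases before the Bbc3 start and 227 before that of Bcl2l11. None of the 16 held the TATA box TATAAA (13.6% of all), the STAT motif TTCNNNGAA (8.30%) or the motif of ATF4-CHOP dimers TGATGNAA (3.97%), on either strand. These are matches of letters only, and overlapping windows of a gene share bases.

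Bcl2, the founding protective member, was read by probe set 1422938_at at 4.82 in control, 5.34 in DNP, 5.19 in BER and 5.35 in BER+DNP. The control array was the lowest and the 3 treated arrays lay close together. The log2 difference between DNP and control was 0.52, a size or more that 1.41% of genes reached in that direction. With berberine on both sides (BER+DNP against BER) it was 0.16, which 20.9% of genes reached. A second Bcl2 probe set past the filter read 3.66 in control, 3.82 in DNP, 3.58 in BER and 3.79 in BER+DNP, and gave 0.16 and 0.21. Both brighter probe sets were therefore above 0 in both anti-DNP IgE pairs. The 3 dimmer ones scattered: one gave -0.64 in DNP against control, the sole member probe set of the 30 past 1.5-fold in that comparison, and all 3 were below 0 in BER+DNP against BER.

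Bcl2l1 encodes Bcl-xL, a protective protein of the outer mitochondrial membrane. Its brightest probe set, 1420888_at, read 8.79 in control, 9.01 in DNP, 8.82 in BER and 8.80 in BER+DNP. DNP alone stood above the other 3 arrays, which lay within 0.04 of each other. The difference was 0.23 in DNP against control and -0.03 in BER+DNP against BER. Another Bcl2l1 probe set past the filter, of the type that reads several transcripts of 1 gene, went the other way, with 4.86 in control, 4.57 in DNP, 4.55 in BER and 4.53 in BER+DNP. There the control was highest, and DNP against control gave -0.29. Over the 4089 genes with at least 2 probe sets past the filter, the median gap between the differences of the brightest 2 was 0.20 in this comparison and its 90th percentile 0.51, which the gap for Bcl2l1 passed.

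Mcl1, a short-lived protective protein that most blood cells need, was dim on 6 of 6 probe sets. The brightest, 1416881_at, read 3.25 in control, 2.97 in DNP, 3.20 in BER and 3.02 in BER+DNP. Both arrays with anti-DNP IgE lay below both arrays without it, by 0.28 without and 0.19 with berberine. Of the 6 probe sets, 5 were below 0 in DNP against control and 6 of 6 in BER+DNP against BER, from -0.06 to -0.52. Among the 244 genes with 6 probe sets, 1.64% had all 6 below 0 in that comparison. That share was taken after the Mcl1 values were seen and for this comparison alone. The 6 probe sets share the same 2 arrays, so nothing is read from it. Of the Mcl1 probe sets, 3 carry the suffix x, of probe sets that can cross-hybridise, and these gave -0.47, -0.33 and -0.52. The direction for Mcl1 was thus the reverse of the one for which the family was picked, at signals under the filter, and was noticed in the data.

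**Figure D1:**
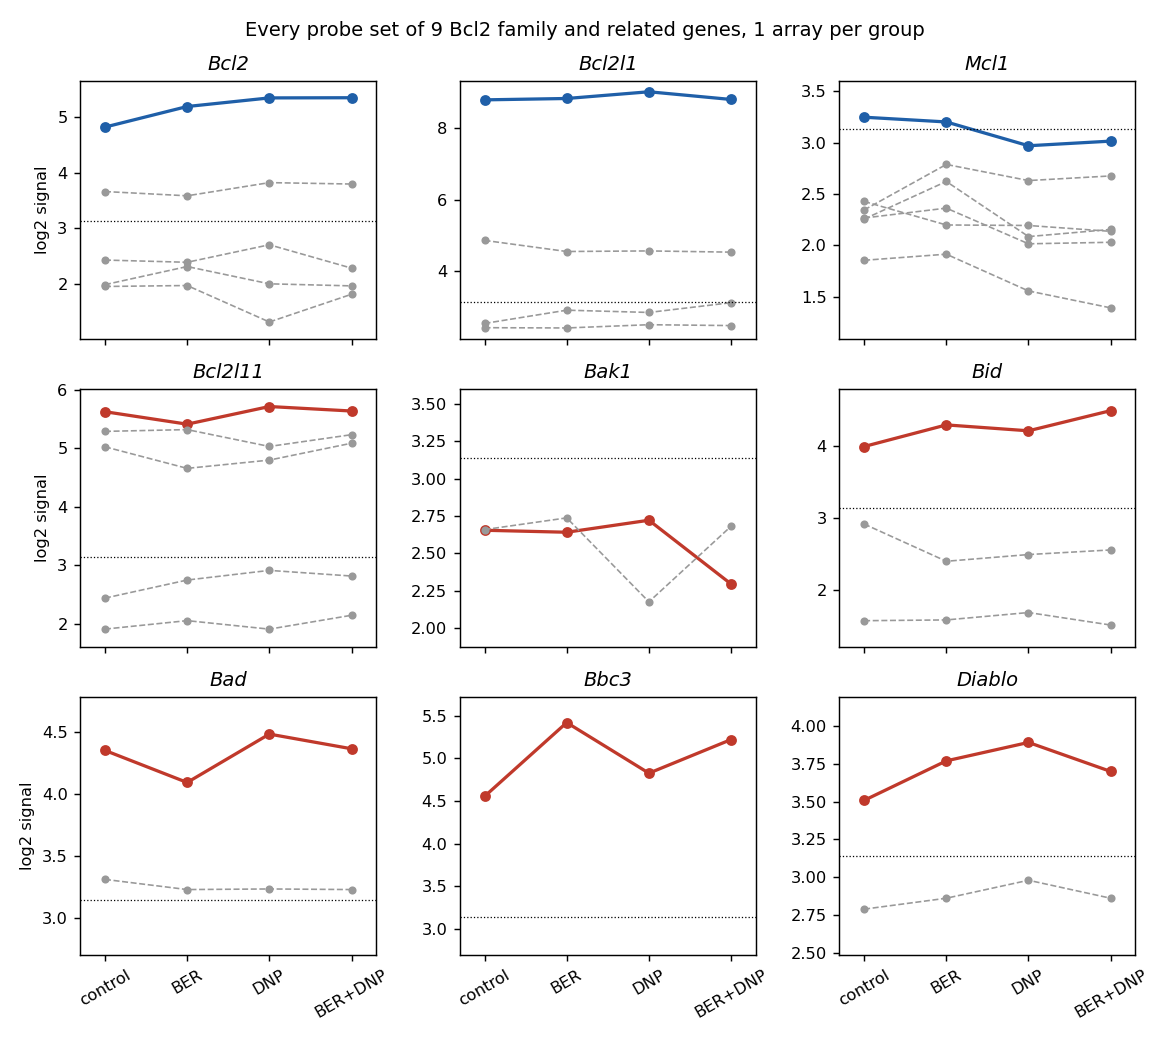
Log2 signal (vertical axis, own scale in each panel) of every probe set of 9 genes on the 4 arrays; thick lines are the brightest probe set of a gene (blue for protective, red for death-promoting members), dashed grey lines the others, and the dotted line the filter at 3.14. Bbc3 reads 4.55 in control and 5.42 in BER, Bcl2 is lowest in control at 4.82, and all Mcl1 lines lie near or below the filter.

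Among the BH3-only genes, Bbc3 had the widest spread. It encodes Puma, which p53 and FOXO factors are known to induce. Its single probe set, 1423315_at, read 4.55 in control, 4.82 in DNP, 5.42 in BER and 5.22 in BER+DNP. Both berberine arrays lay above both arrays without berberine. BER was 1.82-fold above control (log2 difference 0.86), which 0.119% of genes reached, and BER+DNP was 0.39 above DNP, which 2.49% reached. In BER+DNP against control the difference was 0.67. With 32 added to every signal before the log, BER against control gave 0.43, and with 100 added 0.21, both short of 1.5-fold. Anti-DNP IgE gave 0.27 without berberine and -0.20 with it, so the sign for which the family was picked held in only 1 of the 2 pairs.

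Bcl2l11 encodes Bim, a strong activator of Bax and Bak1. Its brightest probe set, 1456005_a_at, read 5.63 in control, 5.72 in DNP, 5.42 in BER and 5.64 in BER+DNP, lowest in BER. The anti-DNP IgE differences were 0.09 and 0.23, and the berberine differences -0.21 and -0.08. The other 2 Bcl2l11 probe sets past the filter disagreed with it: one read 5.29, 5.32, 5.03 and 5.24 in control, BER, DNP and BER+DNP, the other 5.03, 4.66, 4.80 and 5.09. In DNP against control they gave -0.26 and -0.23. By the median of its 5 probe sets, Bcl2l11 stood at -0.00071 in DNP against control, at 0.03 in BER against control and at 0.20 in BER+DNP against DNP. No direction can be given for this gene.

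Bid, which caspase 8 cleaves to link death receptors to mitochondria, was read by probe set 1448560_at at 3.99 in control, 4.21 in DNP, 4.29 in BER and 4.49 in BER+DNP. The control was lowest and the array with both agents highest. Its differences in the 2 anti-DNP IgE pairs were nearly the same, 0.22 and 0.20. Those for berberine, 0.30 and 0.28, are then apart by the same amount by construction. The difference of these differences was -0.02, and 92.2% of genes had one at least as large in size. BER+DNP against control gave 0.50, which 1.86% of genes reached. A dimmer Bid probe set, under the filter, gave -0.42 for DNP and -0.52 for BER, each against control.

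Bad, whose protein is silenced by phosphorylation when survival factors are present, was read by probe set 1416583_at at 4.35 in control, 4.48 in DNP, 4.09 in BER and 4.36 in BER+DNP. BER was the lowest array. Anti-DNP IgE gave 0.13 and 0.27 and berberine -0.26 and -0.12. A second Bad probe set, just past the filter, read 3.31 in control and 3.23 on each of the other 3 arrays, and gave -0.08 and 0.00 for anti-DNP IgE.

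Diablo, read by probe set 1417683_at, gave 3.51 in control, 3.89 in DNP, 3.77 in BER and 3.70 in BER+DNP. The control was again lowest. DNP against control gave 0.38, which 4.66% of genes reached, but BER+DNP against BER gave -0.07. A dimmer Diablo probe set had the same order of arrays at its ends, 2.79 in control and 2.98 in DNP, and read 2.86 in both others. Bak1, a pore former, was dim on both of its probe sets: the brighter read 2.65 in control, 2.72 in DNP, 2.64 in BER and 2.29 in BER+DNP, and the other 2.66 in control, 2.18 in DNP, 2.74 in BER and 2.68 in BER+DNP. They gave 0.07 and -0.48 in DNP against control, so Bak1 has no readable direction here.

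Counted over the 7 members past the filter, 0 were called higher and 0 lower in DNP against control, where 0.803% of all genes were higher and 0.628% lower. In BER+DNP against BER the counts were also 0 and 0, against 0.556% and 0.358%. By sign alone, 7 of the 7 brightest probe sets lay above 0 in DNP against control, the comparison that chose the family. So did 6706 of all 12585 genes past the filter, and Mcl1, under the filter, gave -0.28. In both pairs 4 of 7 (Bcl2, Bcl2l11, Bid and Bad) lay above 0, against 29.4% of all genes. Below 0 in both were 0, against 26% of genes. Since these pairs were in view when the genes were picked, nothing is read from those counts. Over all 30 probe sets, 17 were above 0 and 13 below in DNP against control, and 11 above and 17 below in BER+DNP against BER, where a further 2 read the same on both arrays. No share over all probe sets was taken for these counts, and nothing is read from them. Opposite signs in the 2 pairs were found for 3 of 7 (Bcl2l1, Bbc3 and Diablo), against 42.1% of all genes.

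The 2 protective genes past the filter had a median of 0.38 in DNP against control and 0.07 in BER+DNP against BER, and the 5 death-promoting genes 0.22 and 0.20. All genes past the filter had medians of 0.02 and 0.00, and their middle 95% ran from -0.43 to 0.46 and from -0.41 to 0.41. Of the members, Bcl2 in DNP against control lay beyond that range, and the rest lay inside it in both comparisons. Both classes held genes on each side of 0 in BER+DNP against BER. For the protective class this rests on Bcl2l1 at -0.03, which was 0.02 by the median of its probe sets. With 2 protective genes, in a pair in view when the family was picked, the values cannot show whether the classes part.

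**Figure D2:**
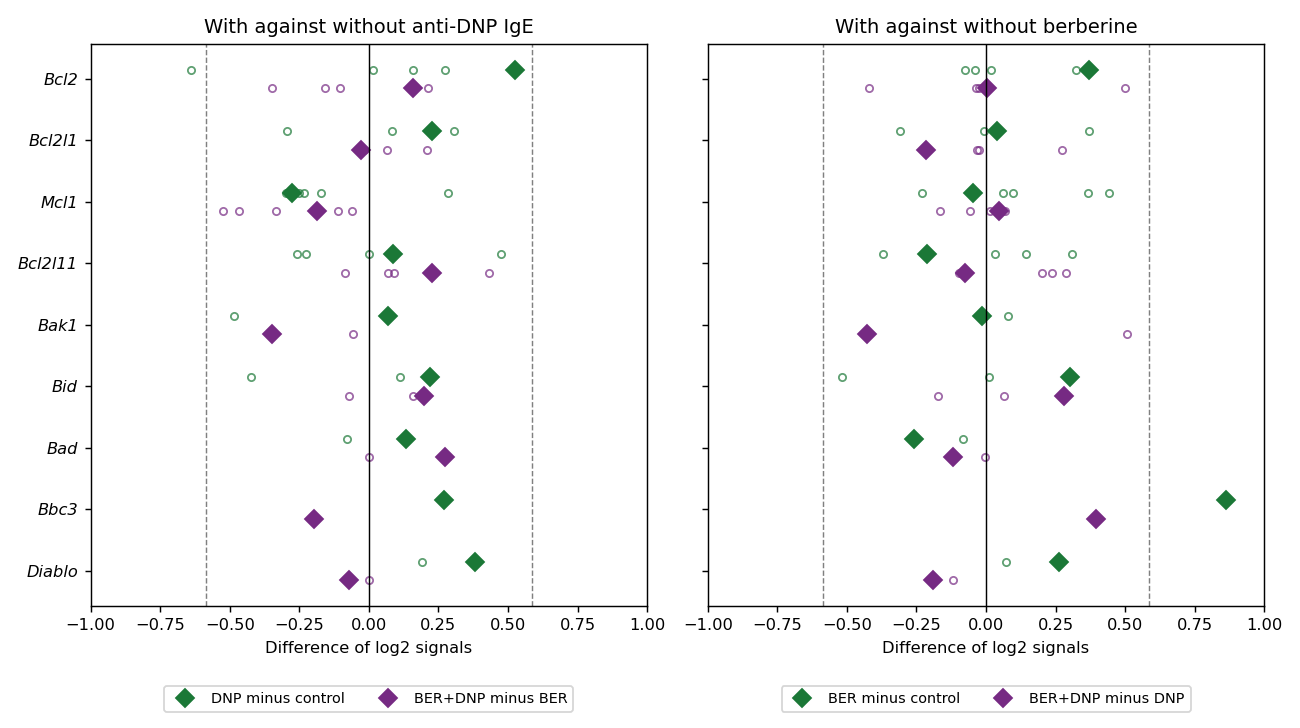
Differences of log2 signals for 9 genes in the 2 anti-DNP IgE pairs (left) and the 2 berberine pairs (right); diamonds are the brightest probe set, open circles the other probe sets, colours the pair of arrays, and dashed lines 1.5-fold. Only the Bbc3 diamond for BER against control, at 0.86, passes 1.5-fold to the right, and circles of 1 gene often lie on both sides of 0.

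DNP against control and BER against control share the control array. Of the 7 members, 5 (Bcl2, Bcl2l1, Bid, Bbc3 and Diablo) were lowest in control, against 27% of all genes, and 4 (Bcl2l1, Bcl2l11, Bad and Diablo) were highest in DNP, against 29.5%; both counts were made after the values had been seen and use the comparison that chose the family. The sum of the log2 signals of all 10 mast cell markers was 33.7 in control, 35.0 in DNP, 35.0 in BER and 35.6 in BER+DNP. Of these 10 markers, 5 were lowest in control, while Ms4a2 was highest in control at 2.85. Cpa3, under the filter, read 1.90 in control and 3.15 in BER, and most of the rise of the sum in BER came from it. In BER against control Gata2, Hdc, Fcer1g and Ms4a2 read lower and the other mast cell markers higher. Epithelial markers summed to 41.7 in control, 42.4 in DNP, 41.4 in BER and 42.2 in BER+DNP, above in both arrays with anti-DNP IgE, but of the 7 only Epcam and Krt14 read higher in both pairs and Krt5 and Krt18 read lower in both. Leukocyte markers went the other way, with sums of 22.3 in control, 21.8 in DNP, 21.9 in BER and 21.2 in BER+DNP. Of these 6 markers 1 was lowest in control. In both anti-DNP IgE pairs 3 read lower and 1 higher. Fibroblast markers summed to 26.3 in control, 26.2 in DNP, 26.4 in BER and 26.6 in BER+DNP. The part of the control array or of any of these marker sets in the members' values was not tested.

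Berberine was not the agent for which the family was picked, although BER against control shares the control array, and BER+DNP against DNP the DNP array, with the comparison that chose it. In BER against control 1 of the 7 members was called higher (Bbc3), against 1.01% of all genes, and 0 lower, against 0.985%. In BER+DNP against DNP, which shares no array with BER against control, the counts were 0 higher (0.509% of genes) and 0 lower (0.699%). In BER+DNP against control, Bbc3 alone was called higher (0.906% of genes) and 0 were lower (0.874%). By sign, 3 of 7 (Bcl2, Bid and Bbc3) were above 0 in both berberine pairs, against 25.4% of genes, although Bcl2 by just 0.0031 in BER+DNP against DNP, and 2 of 7 (Bcl2l11 and Bad) were below 0 in both, against 29.7%. Of the 5 death-promoting genes, Bbc3 and Bid read higher with berberine in both pairs, Bcl2l11 and Bad lower, and Diablo gave 0.26 and -0.19. Their medians were 0.26 and -0.08, with Bbc3 at the top of each. The 2 protective genes had medians of 0.20 and -0.11.

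**Figure D3:**
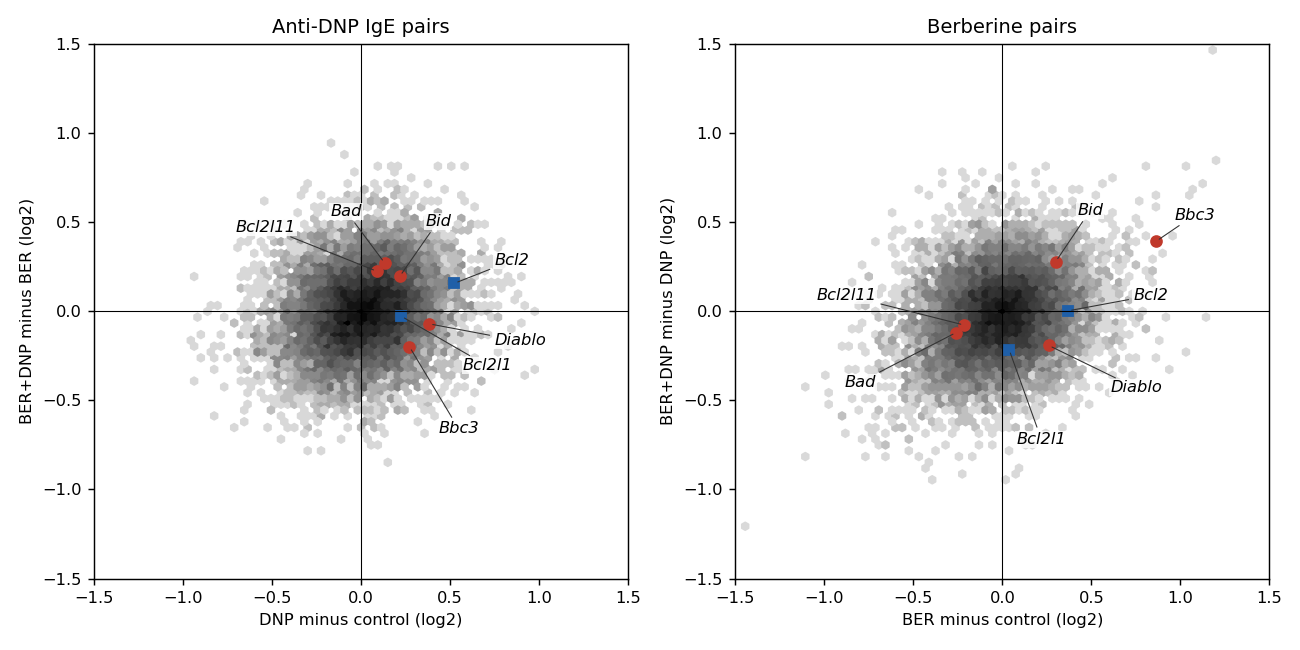
Differences of log2 signals in pairs of arrays that share no array: DNP minus control against BER+DNP minus BER (left) and BER minus control against BER+DNP minus DNP (right). Grey cells are the 12585 genes past the filter (darker for more, log scale), blue squares the protective and red circles the death-promoting members. Bbc3 lies in the upper right part of the right panel, at 0.86 and 0.39. On the left the 7 members lie to the right of 0 but on both sides of the horizontal line.

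Of 67 other apoptosis genes in 5 lists, 59 had a probe set of their own and 43 lay past the filter. In DNP against control 0 of the 43 were called higher and 0 lower (0.803% and 0.628% of all genes), and in BER+DNP against BER it was 1 and 1 (0.556% and 0.358%). In BER against control it was 0 and 1 (1.01% and 0.985%), and 0 and 0 when BER+DNP was set against DNP (0.509% and 0.699%). Medians over the 43 were 0.04, -0.02, 0.01 and -0.03 in these comparisons. Bcl2a1a, Bcl2a1b, Bcl2a1d and Bnip3l have probe sets shared with other genes, and Ripk1 and Trp53 were not analysed here.

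The rest of the Bcl2 family (9 of 16 past the filter) had medians of 0.08 in DNP against control and 0.02 in BER+DNP against BER. By the mean of these differences the highest was Bcl2l13, a mitochondrial relative, at 0.43 and 0.14 (0.13 and -0.19 on a dimmer probe set), and the lowest Hrk, a BH3-only gene, at -0.23 and -0.11 (-0.06 and 0.11 on a second). Among caspases and apoptosome genes (10 of 14), medians were 0.03 and 0.03, and 1 was called. Casp2, a caspase of the stress response, read 5.03 in control, 4.58 in DNP, 5.09 in BER and 4.39 in BER+DNP. Both arrays with anti-DNP IgE lay below both without it, by 0.45 without and by 0.71 (1.5-fold passed) with berberine, on a single probe set.

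Inhibitors of apoptosis and their antagonists (4 of 9) had medians of -0.12 and 0.04 for anti-DNP IgE and -0.19 and -0.01 for berberine. The protease gene Htra2, like Diablo an antagonist, gave 0.04 and 0.13 for anti-DNP IgE (0.30 and 0.04 on a second probe set past the filter). Septin4, whose ARTS isoform binds XIAP, gave -0.27 and -0.06 (0.16 and -0.14 on a dimmer probe set). Death receptor genes (6 of 10) had medians of 0.08 and -0.10 for anti-DNP IgE. Tnfsf10, which encodes the ligand TRAIL, read 3.65 in control, 3.56 in DNP, 3.04 in BER and 3.71 in BER+DNP; the low BER array put it past 1.5-fold below control (-0.60) and BER+DNP past 1.5-fold above BER (0.66). The other 2 Tnfsf10 probe sets, under the filter, gave 0.10 and -0.02 in BER against control, and -0.33 and 0.12 in BER+DNP against BER.

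Upstream regulators (14 of 18) had medians of 0.04 and -0.04 for anti-DNP IgE and 0.02 and -0.01 for berberine, with 0 called. Foxo3, a FOXO factor known to act on Bbc3 and Bcl2l11, read 5.41 in control, 5.52 in DNP, 5.47 in BER and 5.75 in BER+DNP. It was named for its anti-DNP IgE differences, 0.11 and 0.28, the highest of this list by their mean. Its 2 dimmer probe sets, under the filter, gave 0 and -0.14, and -0.05 and -0.04. For berberine Foxo3 gave 0.06 and 0.23, and the dimmer probe sets 0.09 and -0.05, and 0.05 and 0.06. The brightest probe sets of the other listed FOXO genes gave -0.03 and -0.37 (Foxo1) and 0.0028 and -0.0096 (Foxo4) for berberine. E2f1 read lower with anti-DNP IgE, by 0.35 and 0.32, but the other 2 E2f1 probe sets past the filter gave 0.07 and 0.07, and 0.13 and -0.39. Ddit3, which encodes CHOP, another known inducer of Bbc3 and Bcl2l11, was named after its values were seen: it read 5.37 in control, 5.29 in DNP, 5.38 in BER and 5.79 in BER+DNP. Ddit3 was highest in BER+DNP (0.50 above DNP, and 0.49 on its second probe set). Any link of Foxo3 or Ddit3 to the values of Bbc3 or Bcl2l11 was not tested.

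**Figure D4:**
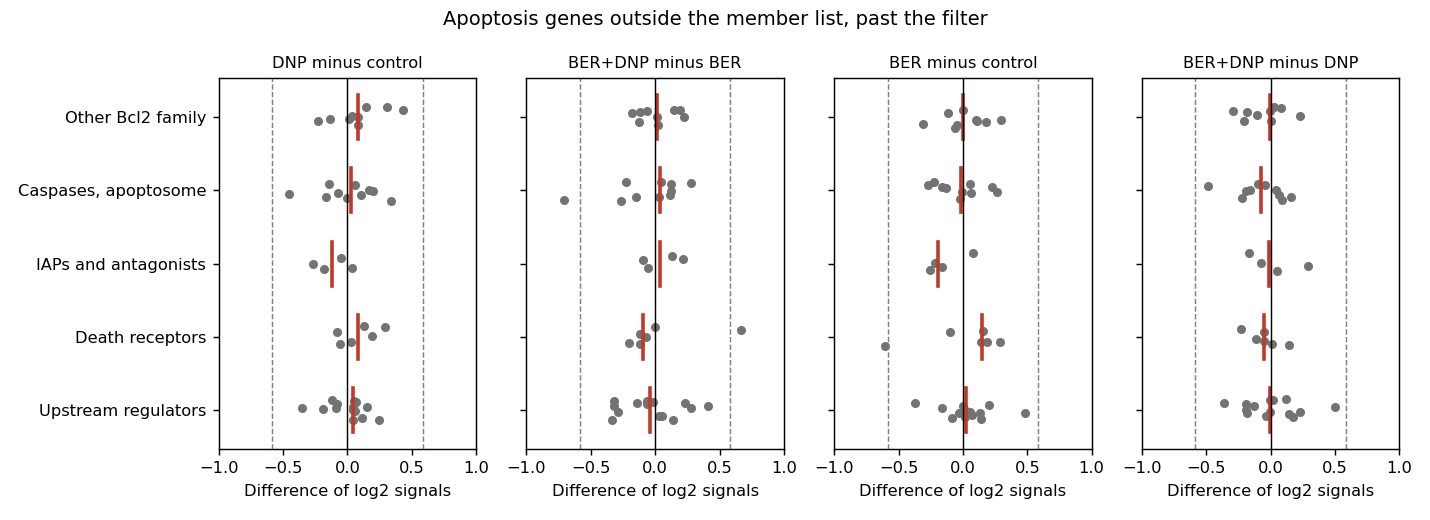
Differences of log2 signals (horizontal axes) of the 43 other apoptosis genes past the filter, by list, in 4 comparisons; each dot is a gene, red bars are medians and dashed lines 1.5-fold. Casp2 (-0.71) and Tnfsf10 (0.66 and -0.60) are the genes past the dashed lines, and each median lies within 0.2 of 0.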

How the data were processed

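The 4 groups of cells labelled as MC/9 were measured on 1 array each. Per the submitters' processing notes the authors used Affymetrix Expression Console. No source used here states its version, or how probes were summarised and background removed. The deposited values were taken as log2 signals because they run from 1.05 to 14.0, and as normalized between arrays because the array medians lay between 3.13 and 3.15. Any floor or smoothing of low signals remains in them and can shrink differences between dim readings.

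Of 45101 rows, 64 were controls and were left out. By the platform annotation of 2016, 34945 probe sets had 1 symbol, 932 had more and 9160 had none here; 34741 matched a RefSeq gene of GRCm38.p6 by gene identifier, which changed 0 symbols. Genes were read by their brightest probe set and counted at a mean of at least 3.14. Differences of log2 signals were taken between 2 arrays, with 1.5-fold as the call and no test. The lists, members and comparisons were chosen with earlier results of these data known. All 10 members are named; of each other list, genes past 1.5-fold in any single-agent pair, or else the highest and lowest by mean anti-DNP IgE difference. The 7 alternatives were the median of all probe sets, no filter, a filter at the 75th percentile, quantile normalization, 32 or 100 added to signals, and no probe sets with suffix x or s. Python 3.11.15, numpy 2.4.6, pandas 2.3.3 and matplotlib 3.10.9 were used, and the steps were tested on simulated data.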

Additional observations from a re-analysis of the deposited data

Results flagged for a closer look

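Of the 7 members past the filter, 3 had opposite signs in the 2 anti-DNP IgE pairs, as did 42.1% of all genes; the difference was not tested since each pair is 2 arrays, and the first pair is the one that chose the family. For Bbc3 the anti-DNP IgE difference was 0.27 without and -0.20 with berberine, a difference of differences of -0.47, a size that 8.92% of genes reached in either direction. For Diablo it was 0.38 without and -0.07 with berberine, a difference of differences of -0.45 (10.1% of genes). For Bcl2l1 it was 0.23 and -0.03, a difference of differences of -0.25 (32.4% of genes), while its second probe set past the filter gave 0.28.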

How the results depend on the processing

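No paired analysis was possible because each group holds 1 array and no replicate numbers pair them; the 2 pairs of each agent are given side by side. Of 188 values of single members under the 7 alternatives, 6 changed sign, all with the median of all probe sets, for Bcl2, Bcl2l1 and Bcl2l11. By size, 25 of the 188 moved by at least 0.18, and 2 more, for Bbc3 in BER against control, fell short of 1.5-fold. Bcl2 in DNP against control went from 0.52 to 0.16 by the median of all probe sets. With 32 and 100 added it was 0.27 and 0.13. Of 56 class medians, 5 changed sign: the protective one in BER+DNP against BER (-0.04 by the median of all probe sets, -0.03 with no filter) and, unfiltered, for BER+DNP set against DNP (0.0031), and the death-promoting one in BER+DNP against DNP (0.06 by the median of all probe sets) and, given below, in BER against control. The median of all probe sets took the protective median in DNP against control to 0.157 and those of the protective and death-promoting genes in BER against control to 0.0163 and 0.0304. With 100 added to signals, the DNP against control medians were 0.160 (protective) and 0.0319 (death-promoting). In BER against control the death-promoting median was -0.214 with the filter at the 75th percentile, which leaves out Bid and Diablo, and 0.0731 and 0.0289 with 32 and 100 added; adding a constant shrinks every difference by construction. The count of members called higher was then 0 with 32 and 0 with 100 added, where Bbc3 gave 0.43 and 0.21. The other 116 values of medians and counts moved by less than 0.18 (medians) or at most 1.5 times (counts), a limit for medians taken from how far a typical gene's 2 pairs differed. Signals of Mcl1 and Bak1 lie under the filter, which limits what can be read from them.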
